A study of Mus musculus with 10 samples.

Results

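The comparison described here is AP20187 against vehicle in C2C12 cells that carry Fv2E-PERK. It rests on 4 of the 10 arrays of the series, 2 for AP20187 and 2 for vehicle, chosen by the cell line and the treatment that the labels name. C2C12 is a mouse myoblast line whose cells fuse into multinucleate myotubes when serum is lowered. Fv2E-PERK joins the catalytic part of the kinase PERK (gene Eif2ak3) to a binding domain for AP20187, a small molecule that brings 2 copies of the fusion together and so switches the kinase on. The cells of both groups carried the fusion, grew in 10% fetal bovine serum, were kept in 2% horse serum for 3 days to differentiate and were then given ethanol as vehicle or AP20187 at 100 nM, with harvest 12 h later. No sample was C2C12 without the fusion, so that what AP20187 does through PERK and what it does otherwise cannot be told apart here. The remaining 6 arrays hold muscle of male C57BL/6J mice, either untreated wild type or hSA::Fv2E-PERK transgenic, the latter with vehicle or AP20187 at 1 ng/g, also for 12 h. The labels do not say whether the 2 samples of a group were separate cultures or whether the cell line was 1 clone, so the p-values measure the spread between these samples, which may be technical.

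PERK phosphorylates the translation initiation factor eIF2alpha, which slows protein synthesis overall while the mRNA of the transcription factor ATF4 is translated more. ATF4 and its partners then switch on the integrated stress response (ISR), with genes for amino acid synthesis, amino acid uptake and tRNA charging, the factors ATF3 and CHOP (gene Ddit3), the pseudokinase TRIB3 and the secreted hormones FGF21 and GDF15. Differentiating myotubes build sarcomeres from embryonic, slow and fast protein isoforms and turn on enzymes of energy supply. Fat cells are defined by another programme, led by PPARgamma and the C/EBP factors, with genes for lipid binding, lipid storage and secreted adipokines.

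After 12 h of AP20187 the largest rises were in genes best known from fat cells, with Fabp4 13.0-fold and Cfd 12.4-fold higher. Both were well above background on 1 of the 2 vehicle arrays, and the other was set no lower than its lowest detected signal for these folds. The largest falls were in muscle genes, with Mybpc2 at least 8.14-fold, Tuba8 at least 8.03-fold and Ckmt2 at least 5.13-fold lower, and among genes detected on all 4 arrays Pvalb fell 7.54-fold and Myh4 3.56-fold. A smaller group of ISR genes rose, among them Fgf21 3.97-fold, Atf3 2.71-fold and Cth 2.66-fold. Of 11464 genes tested, 51 (0.445%) passed an adjusted p under 0.05 in limma, 34 higher with AP20187 (0.297%) and 17 lower (0.148%). At least 2-fold changes made up 32 of the 34 and 9 of the 17. Counts of called list members below are to be read beside the shares of 0.297% higher and 0.148% lower. An unadjusted p under 0.05 was reached by 1642 genes, and the median log2 change over all genes tested was -0.06. Throughout, a level is the log2 intensity of the gene's probe after subtracting its array's 75th percentile, a change is the AP20187 mean minus the vehicle mean on that scale with its standard error (SE) from the fit, and adjusted p-values are Benjamini-Hochberg over all genes tested. Levels of different genes come from different probes and are not comparable with each other. Over the 20401 probes detected on each of the 4 arrays, levels correlated between arrays at 0.989 to 0.993.

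The number of calls depended on how arrays were scaled and on single arrays. Scaling by the percentile over detected probes gave 46 higher and 13 lower calls, by the median 44 and 13, and normexp background correction 181 and 206. Without the first vehicle array there were 194 higher and 84 lower calls, without the second vehicle array 14 and 3, without the first AP20187 array 53 and 53, and without the second AP20187 array 91 and 125. Of the 51 calls, 49, 17, 41 and 46 were also made without these arrays, in the same order, 19 with no variance trend and 14 in the authors' deposited table. Bright spots were flagged as outliers by the scanner software much more often with AP20187, 21.4% and 17.8% of the brightest 10% of spots against 1.47% and 0.674% with vehicle. Left out as they were, they removed the value on both AP20187 arrays for 201 of 19752 genes, and taking the percentile over unflagged spots moved the median log2 change to 0.15 and the calls to 204 higher and 13 lower. Vehicle and AP20187 arrays lay in different rows of the slide, and no row held both treatments, so that slide row and treatment cannot be told apart.

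The label of the cells was set against marker genes. All 10 myotube markers, among them Myog, Acta1, Myh3 and Mymk, were well above background on all 4 arrays, and the log2 of their summed intensities was 10.3 and 10.4 with vehicle and 10.0 and 10.1 with AP20187. Of 5 markers of proliferating myoblasts, Myf5 and Pax7 were on no array above background, while Mki67, Ccnb1 and Top2a were on every array. The fat cell markers differed by treatment: 2 of 10 (Pparg and Cebpa) were well above background on both vehicle arrays and 8 of 10 on both AP20187 arrays, 4 of the 10 were called higher, and Lep was on no array above background. The log2 of their summed intensities was 1.46 and 1.33 with vehicle and 3.73 and 3.29 with AP20187. The 4 called markers were tested through the AP20187 arrays alone, so that their direction was set by the filter (0.297% of all genes tested were called higher). Of 4 brown fat markers, Ucp1 and Prdm16 were on no array above background and Zic1 was level at 2.50, 2.44, 2.39 and 2.55, while Cidea was detected on both AP20187 arrays, on neither vehicle array, and was called higher. Cidea too was tested through the AP20187 arrays alone. RNA from a bulk culture does not show whether more cells of a kind or more RNA per cell lies behind a change.

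The kinase gene itself, Eif2ak3, had levels of 0.38 and 0.18 with vehicle and -0.06 and 0.13 with AP20187, a change of -0.25 (SE 0.16, limma adjusted p = 0.52). Its probe cannot be said to read the fusion transcript, so it is no check of the transgene. Atf4, whose protein drives the response, had levels of 2.61 and 2.63 with vehicle and 2.92 and 2.92 with AP20187. Both AP20187 values lay above both vehicle values, but the change of 0.30 (SE 0.12) did not pass (limma adjusted p = 0.285). Atf5, a related factor, overlapped between treatments with a change of 0.02. Of 11 ISR transcription factors tested only Atf3 was called, and 6 of the 11 lay above vehicle on both AP20187 arrays with none below, where 16.9% of the 11179 genes with 4 values lay above and 29.9% below. Their median change was 0.30 against -0.06 over all genes, between 0.04 and 0.51 over 19 alternatives. Here and below, quantile normalization after leaving out outlier spots is not among these 19 or among the alternatives for single genes. Under it the median change over all genes was 0.34, so list medians could shift further than the ranges given.

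Atf3, a stress-induced factor of the ATF family, had levels of -0.28 and -0.36 with vehicle and 1.03 and 1.20 with AP20187. The 2 treatments were far apart and the replicates close, and Atf3 rose by 1.44 (SE 0.15, 2.71-fold, limma adjusted p = 0.00088). Ddit3, which encodes CHOP, had 1.88 and 2.19 with vehicle and 2.61 and 2.54 with AP20187, a change of 0.54 (SE 0.14) that did not pass (limma adjusted p = 0.128). Ppp1r15a, which encodes the eIF2alpha phosphatase subunit GADD34, had 3.49 and 3.81 with vehicle and 4.41 and 4.04 with AP20187. For both genes the treatments did not overlap, yet the change of Ppp1r15a (0.58, SE 0.16) did not pass either (limma adjusted p = 0.14). Nupr1, a small stress-induced nuclear protein, stood at 5.37 and 5.66 with vehicle and 6.03 and 6.30 with AP20187 (change 0.65, SE 0.14, limma adjusted p = 0.086).

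Among 17 tested ISR target genes 2 were called, both higher, where 0.297% of all genes tested were called higher. Of the 15 with values on all arrays 11 lay above vehicle on both AP20187 arrays and 2 below, against 16.9% and 29.9% of all genes. Gadd45a, a growth arrest gene, had levels of 2.85 and 2.67 with vehicle and 3.97 and 3.88 with AP20187. It rose by 1.16 (SE 0.12, 2.24-fold, limma adjusted p = 0.000938), with a gap between treatments several times the gap between replicates. The call of Gadd45a was not kept under every alternative. Trib3 had 4.23 and 4.31 with vehicle and 5.31 on the first AP20187 array, and its spot on the second was flagged as an outlier. From those 3 values the change was 1.04 (SE 0.15, limma adjusted p = 0.0152). With the flagged spot kept the second AP20187 level was 4.80, the change 0.78 and the adjusted p 0.0577, so the call rests on leaving that spot out. Chac1, a glutathione-degrading enzyme, was flagged on both AP20187 arrays and could not be tested, and with flagged spots kept its levels were 4.07 and 4.12 with vehicle and 4.95 and 4.81 with AP20187 (change 0.78, SE 0.12, limma adjusted p = 0.0138). The median change of the list was 0.32, between 0.19 and 0.53 over 19 alternatives.

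The metabolic arm of the ISR moved in a few enzymes. Of 21 genes of amino acid synthesis tested, Cth and Psph were called higher and none lower, against 0.297% and 0.148% of all genes tested. Cth, the cystathionine lyase that makes cysteine, had levels of 0.18 and 0.20 with vehicle and 1.61 and 1.60 with AP20187. Replicates were all but identical and Cth rose by 1.41 (SE 0.13, 2.66-fold, limma adjusted p = 0.000419), and its 2 probes gave 1.36 and 1.41. Psph, the last enzyme of serine synthesis, stood at 2.70 and 2.71 with vehicle and at 3.54 and 3.32 with AP20187. It rose by 0.73 (SE 0.13, 1.65-fold, limma adjusted p = 0.0353), a call lost without the second vehicle array (0.2). Phgdh, the first enzyme of the same pathway, changed by 0.02, and Psat1, the middle one, by 0.23 (limma adjusted p = 0.466), and neither passed.

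Asns, the asparagine synthetase, had 6.02 and 5.95 with vehicle and 6.52 on the single unflagged AP20187 array (change 0.54, SE 0.15, limma adjusted p = 0.166). Mthfd2, a mitochondrial folate enzyme, had 3.16 and 2.89 with vehicle and 3.60 and 3.74 with AP20187 (change 0.65, limma adjusted p = 0.0711). Neither passed, though in Mthfd2 the treatments did not overlap. Of 17 amino acid transporter genes tested the single call was a fall, where 0.148% of all genes tested were called lower. Slc6a6, the taurine transporter, had 4.54 and 4.48 with vehicle and 3.83 and 3.91 with AP20187, and fell by 0.64 (SE 0.12, limma adjusted p = 0.0432). That call was lost without the second vehicle array (0.185), without the first AP20187 array (0.111) and under 5 other scalings (0.0574 to 0.0751). Slc7a5, a carrier of large neutral amino acids, had a change of 0.49 (limma adjusted p = 0.14) and Slc38a2, a carrier of small ones, of -0.01.

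None of 18 cytosolic tRNA synthetase genes tested was called, but 10 of the 17 with 4 values lay above vehicle on both AP20187 arrays and 3 below. Their median change was 0.20, between 0.12 and 0.41 over 19 alternatives, and the smallest adjusted p was that of Tars, the threonine enzyme, with 4.94 and 4.96 against 5.48 and 5.57 (change 0.58, limma adjusted p = 0.0692). The ER chaperone and folding genes, which the ATF6 and XBP1 branches of the unfolded protein response control, gave no call among 27 tested either, and 5 of 25 lay above and 11 below, against 16.9% and 29.9% of all genes. Hspa5, the chaperone BiP, had 7.37 and 7.15 with vehicle and 7.09 on the unflagged AP20187 array, a change of -0.16 (SE 0.16). The median of the chaperone list was -0.08 and crossed zero between alternatives, from -0.15 to 0.13.

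Of the hormones secreted in the ISR, Fgf21 was called and Gdf15 was not. Fgf21, a fasting and stress hormone made by liver and stressed muscle, had levels of 2.41 and 1.77 with vehicle and 4.22 and 3.94 with AP20187. All AP20187 values exceeded all vehicle values by more than the vehicle arrays differed, and Fgf21 rose by 1.99 (SE 0.19, 3.97-fold, limma adjusted p = 0.000419). The call was lost with no variance trend (0.0711), in the authors' deposited table (0.0784) and with all 10 arrays in the fit (0.0946). Gdf15, a TGF-beta family hormone that lowers appetite, had 1.13 and 0.82 with vehicle and 1.57 and 1.73 with AP20187. The treatments did not overlap, but the change of 0.67 (SE 0.15) did not pass (limma adjusted p = 0.0843). Adm2, a peptide of the calcitonin family, was low, with -2.13 and -2.77 against -1.43 and -1.30 (change 1.08, SE 0.36, limma adjusted p = 0.229).

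**Figure D1:**
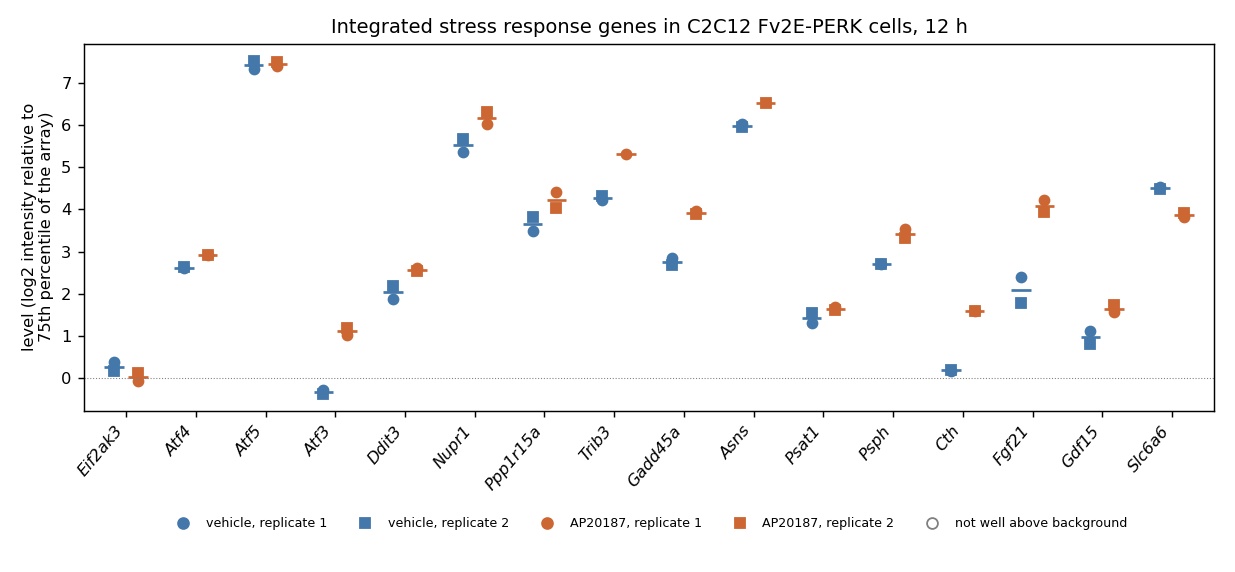
Level of 16 integrated stress response genes on the 4 C2C12 arrays. The vertical axis is that level in log2 units, blue is vehicle and orange AP20187, circles are replicate 1 and squares replicate 2, and dashes are group means of 2 arrays, or of 1 where a spot was left out as an outlier (Trib3 and Asns with AP20187). Atf3, Cth, Gadd45a and Fgf21 changed by 1.16 to 1.99, while the 2 groups of Atf5 overlap.

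ATF4 binds C/EBP-ATF response elements (CARE), whose core was searched as TGATGNAA on both strands in the 250 bases before the start of each gene. It was present in 3.45% of 32851 mouse promoters and in 4 of the 12 ISR genes for which values were to be given whatever their test, namely Fgf21, Atf3, Chac1 and Asns. The 4 promoters are shown because these genes include Fgf21 and Atf3, which were called. They are from RefSeq (GRCm38.p6), 5' to 3' on the strand of the gene, with the core in capitals:
Fgf21, chr7:45615491-45615740, minus strand: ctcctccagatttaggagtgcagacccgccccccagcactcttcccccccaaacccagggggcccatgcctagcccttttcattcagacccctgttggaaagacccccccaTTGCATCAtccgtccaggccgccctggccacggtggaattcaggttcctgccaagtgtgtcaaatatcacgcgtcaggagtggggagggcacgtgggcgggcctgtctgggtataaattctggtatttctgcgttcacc
Atf3, chr1:191183334-191183583, minus strand: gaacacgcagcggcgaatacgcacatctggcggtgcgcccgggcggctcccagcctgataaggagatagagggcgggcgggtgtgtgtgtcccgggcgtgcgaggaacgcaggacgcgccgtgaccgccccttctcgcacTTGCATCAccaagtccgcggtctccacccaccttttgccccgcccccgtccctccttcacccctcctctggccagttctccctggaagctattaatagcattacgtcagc
Chac1, chr2:119350992-119351241, plus strand: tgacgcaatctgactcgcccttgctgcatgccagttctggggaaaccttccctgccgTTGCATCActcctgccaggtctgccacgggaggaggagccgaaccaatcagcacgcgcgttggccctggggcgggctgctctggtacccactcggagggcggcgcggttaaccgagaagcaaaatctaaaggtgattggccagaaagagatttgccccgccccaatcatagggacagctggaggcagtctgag
Asns, chr6:7693210-7693459, minus strand: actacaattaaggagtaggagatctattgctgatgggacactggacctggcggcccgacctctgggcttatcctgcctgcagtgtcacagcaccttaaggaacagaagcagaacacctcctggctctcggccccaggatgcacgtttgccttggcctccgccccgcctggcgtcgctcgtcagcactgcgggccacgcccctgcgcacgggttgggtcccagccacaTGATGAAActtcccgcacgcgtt
Fgf21, Atf3 and Chac1 hold the same 8 bases, TTGCATCA, the reverse strand of the core, ending 132, 103 and 186 bases before the start. Asns holds TGATGAAA on the strand of the gene, ending 16 bases before the start. Of the 34 genes called higher 28 had a promoter in the table, and 3 of them held the core, Fgf21, Atf3 and Tac4. Among 14 promoters of the 17 genes called lower the core was in none. The C/EBP motif TTGCNNAA lay in 3 of the 28 (Cdsn, Gadd45a and Lypd11) and in 1 of the 14 (Myh4), against 9.56% of all promoters. The MEF2 motif, of a family of muscle factors, lay in 1 of the 28 (Atf3) and none of the 14, against 3.20%, and the DR1 motif, to which PPARgamma binds with RXR, in none of either, against 0.338%. A match says only that these letters occur in that window.

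Genes of fat cells gave the largest rises. Fabp4, a fatty acid binding protein, had levels of -1.76 and -2.24 with vehicle and 1.98 and 1.43 with AP20187, and rose by 3.70 (SE 0.23, 13.0-fold, limma adjusted p = 1.46e-05). Lpl, the lipase that frees fatty acids from lipoproteins, had -1.59 and -2.91 with vehicle and 0.63 and 0.47 with AP20187, and rose by 2.80 (SE 0.35, limma adjusted p = 0.0038). Both were well above background on 1 vehicle array only, and with the other set no lower than its lowest detected signal the folds were 13.0 for Fabp4 and 5.61 for Lpl. The call of Lpl was lost with no variance trend (0.118) and in the authors' deposited table (0.131). In both genes every AP20187 value was above every vehicle value, although the vehicle arrays of Lpl lay 1 log2 unit and more apart. These were the 2 calls among 13 fatty acid uptake and binding genes, whose median change was 0.01. Fabp4 and Lpl were tested through the AP20187 arrays alone, so that their direction was set by the filter. Of all genes tested 0.297% were called higher. Fabp3, the muscle form of the binding protein, had 3.34 and 3.27 with vehicle and 3.02 and 3.08 with AP20187 (change -0.26, limma adjusted p = 0.353).

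Of 8 adipokine and adipocyte surface genes tested, 4 entered through the AP20187 arrays alone, and the 3 called higher were among these, so that their direction was set by the filter (0.297% of all genes tested were called higher). Cfd (adipsin, a complement protease) had levels of -2.15 and -2.39 with vehicle and 1.58 and 1.26 with AP20187, and rose by 3.69 (SE 0.20, limma adjusted p = 5.68e-06). Retn (resistin) had -2.48 and -2.97 with vehicle and 0.72 and 0.29 with AP20187, and rose by 3.23 (SE 0.27, limma adjusted p = 0.000254). Both were well above background on 1 vehicle array only, and with the other set no lower than its lowest detected signal the folds were 12.4 for Cfd and 7.38 for Retn. Adipoq (adiponectin) had -2.78 and -3.23 with vehicle and 0.90 and -0.01 with AP20187. Adipoq was not well above background on either vehicle array, so its fold is a bound, at least 7.88-fold higher (limma adjusted p = 0.000429), taken against the lowest detected signal of each vehicle array. Lep (leptin), Adrb3 (the adipocyte adrenergic receptor) and Nrg4 were not well above background in either group as the test required. The remaining tested members included a lower value, Agt (angiotensinogen), with -2.15 and -1.86 against -2.90 and -4.46, which did not pass (change -1.67, SE 0.64, limma adjusted p = 0.283).

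Lipid synthesis and storage followed single genes. Thrsp, a regulator of lipogenesis, was not well above background with vehicle (-4.83 and -4.47) and reached 0.68 and -0.30 with AP20187, at least 7.80-fold higher (limma adjusted p = 0.000419). Dgat2, which makes the last step to triglyceride, had -0.47 and -0.24 with vehicle and 1.08 and 0.77 with AP20187, and rose by 1.28 (SE 0.17, 2.43-fold, limma adjusted p = 0.00479). Those were the 2 calls among 18 lipogenesis genes, whose median change was -0.03 (0.297% of all genes tested were called higher). Thrsp was tested through the AP20187 arrays alone, which sets its direction. The enzymes of fatty acid synthesis itself did not pass, with changes of -0.40 for Fasn, -0.17 for Acaca and 0.01 for Scd1. Among 12 lipid droplet genes, Cidea was the single call, with -3.24 and -2.67 against -0.96 and -0.90, at least 3.56-fold higher (limma adjusted p = 0.0404). Cidec, with -4.97 and -4.34 against -1.54 and -2.04 (limma adjusted p = 0.106), and Plin1, with -2.64 and -3.64 against -1.05 and -1.45 (limma adjusted p = 0.104), had separated values but did not pass. Plin2, a droplet coat protein of most cells, overlapped between treatments (change -0.05). Without the second vehicle array the calls of Dgat2 (0.0811) and Cidea (0.0969) were lost, and that of Cidea also without either AP20187 array (0.115 and 0.112).

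The factors that lead fat cell formation did not pass. Pparg had levels of 0.16 and 0.16 with vehicle and 0.38 and 0.41 with AP20187 (change 0.23, SE 0.15, limma adjusted p = 0.499). Cebpa had -1.15 and -1.09 with vehicle and -1.06 and -1.39 with AP20187 (change -0.10, SE 0.25), and Cebpd overlapped with a change of -0.00. Pparg was thus separated by a small amount while Cebpa overlapped, and both were detected on all 4 arrays. Cebpb had 2.46 and 2.11 with vehicle and 2.88 and 2.47 with AP20187 (change 0.40, limma adjusted p = 0.313). Klf4, an early factor of the programme, had 1.22 and 0.81 with vehicle and 1.80 and 1.74 with AP20187 (change 0.76, SE 0.15, limma adjusted p = 0.0687). Of 18 adipogenic factors tested, none was called, 7 lay above and 4 below, and the median change was 0.05. Of 23 fatty acid oxidation and PPAR target genes none was called, 2 lay above and 9 below (16.9% and 29.9% of all genes), and their median of -0.11 crossed zero between alternatives, up to 0.09.

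**Figure D2:**
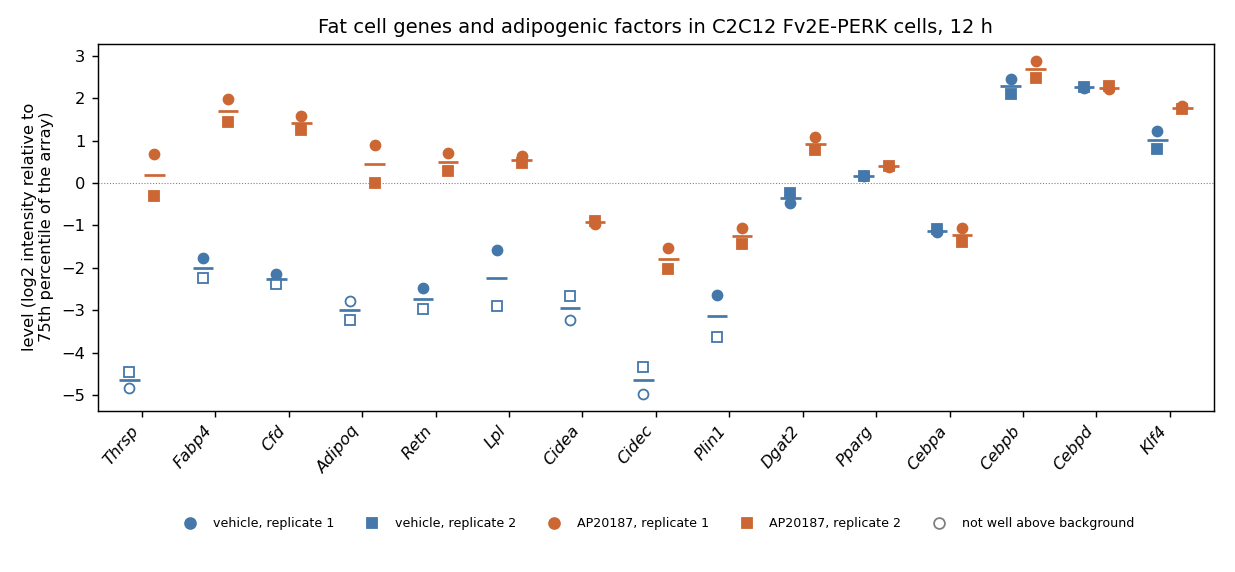
Level of 10 fat cell and lipid genes and of 5 adipogenic factors on the 4 C2C12 arrays. Axes and colours are those of the stress response plot, and open symbols mark spots not well above background. Fabp4, Cfd, Retn and Adipoq lie between -3.23 and -1.76 with vehicle and between -0.01 and 1.98 with AP20187, while Pparg, Cebpa and Cebpd move by 0.23 or less.

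Many of these rises started from the detection limit. Of the 34 genes called higher, 18 were tested through the AP20187 arrays alone, since at least 1 vehicle array did not have them well above background, and 6 of them were so on neither vehicle array. The stricter requirement of detection on all 4 arrays removes such genes and left 19 higher and 18 lower calls. Of the 8 called fat cell and lipid genes above, 7 entered through the AP20187 arrays alone and could not be tested under that requirement, and Dgat2 alone remained. Under normexp the changes were smaller, 2.45 for Fabp4, 2.42 for Cfd, 2.10 for Thrsp, 1.77 for Adipoq, 1.60 for Retn and 1.57 for Lpl. Markers of other lineages gave no calls: Ibsp of bone stood at -2.07 and -1.98 with vehicle and -0.48 and -1.59 with AP20187, and Acan of cartilage at -1.38 and -2.63 against -0.70 and -0.38 (change 1.47, SE 0.37, limma adjusted p = 0.126). The log2 of the summed intensities of 5 bone and cartilage markers was -0.23 and -0.44 with vehicle and 0.69 and 0.48 with AP20187. Of 5 genes tested in the bone and cartilage list 3 lay above and none below, against 16.9% and 29.9% of all genes. The median change of that list was 0.49, between 0.20 and 0.70 over 19 alternatives, and 1 of the 5 was tested through the AP20187 arrays alone.

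Mature fibre genes made up the other side of the response. Pvalb, the calcium buffer parvalbumin of fast fibres, had levels of 2.40 and 2.22 with vehicle and -0.73 and -0.48 with AP20187, and fell by 2.91 (SE 0.15, 7.54-fold, limma adjusted p = 5.68e-06). Mybpc2, the fast myosin binding protein C, had -0.09 and 0.37 with vehicle and was not well above background with AP20187 (-4.26 and -2.93), at least 8.14-fold lower (limma adjusted p = 0.00185). Pgam2, the muscle phosphoglycerate mutase, had 3.00 and 3.36 with vehicle and 2.10 and 2.07 with AP20187, and fell 2.14-fold (SE 0.14 on the log2 scale, limma adjusted p = 0.00397). In all 3 the treatments were apart by more than either pair of replicates, though the call of Pvalb was lost in the authors' deposited table (0.0928). They were the calls among 17 fast sarcomere and metabolism genes, where 0.148% of all genes tested were called lower. Mybpc2 was the 1 member tested through the vehicle arrays alone, which sets its direction. Of the 13 with 4 values 12 lay below vehicle on both AP20187 arrays and none above, against 29.9% and 16.9% of all genes. The median change of the 17 was -0.42 against -0.06 over all genes, between -0.65 and -0.21 over 19 alternatives.

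The myosin heavy chains fell in 1 member. Myh4, the fastest adult isoform (IIb), had levels of 2.71 and 2.72 with vehicle and 0.80 and 0.96 with AP20187, and fell by 1.83 (SE 0.13, 3.56-fold, limma adjusted p = 4.16e-05), a call lost in the authors' deposited table (0.139). Myh2 (IIa) had -1.49 and -0.89 with vehicle and was not well above background with AP20187 (-3.26 and -4.49), a change of -2.68 (SE 0.54) that did not pass (limma adjusted p = 0.0704). Myh1 (IIx) had 4.82 and 4.82 with vehicle and 4.39 and 4.39 with AP20187 (change -0.42, SE 0.11, limma adjusted p = 0.141). The adult isoforms were thus all lower on both AP20187 arrays, by unequal amounts. Myh7, the slow isoform, had 2.05 and 1.89 with vehicle and 1.39 and 1.78 with AP20187 (change -0.38, limma adjusted p = 0.295). Myh3, the embryonic isoform, was flagged on both AP20187 arrays, and with flagged spots kept had 8.57 and 8.57 with vehicle and 8.23 and 8.27 with AP20187 (limma adjusted p = 0.296). The chains are near-identical in parts of their sequence, so that a probe of one may take up signal of another. Of 8 chains tested 1 was called, and the median change was -0.42. The 8 include the non-muscle chains Myh9 (change -0.41) and Myh10 (-0.15). Among the 8, 2 were tested through the vehicle arrays alone, which sets their direction. Of 7 with 4 values 6 lay below and none above, against 29.9% and 16.9% of all genes.

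Slow and structural genes had fewer calls. Ckmt2, the mitochondrial creatine kinase of sarcomeres, had levels of -0.42 and -0.75 with vehicle and was not well above background with AP20187 (-4.03 and -4.09), at least 5.13-fold lower (limma adjusted p = 0.00287). It was the call among 16 slow and cardiac sarcomere genes, whose median change was -0.28 (0.148% of all genes tested were called lower). Of the 16, 3 were tested through the vehicle arrays alone, Ckmt2 among them, which sets their direction. Of 15 with 4 values 10 lay below and none above, against 29.9% and 16.9% of all genes. Tcap (telethonin, which caps titin at the Z-disc) had 1.53 and 1.87 with vehicle and 0.61 and 0.18 with AP20187, and fell by 1.31 (SE 0.17, 2.48-fold, limma adjusted p = 0.00538). Neither gene overlapped between treatments. Among 23 genes of the Z-disc, titin and sarcolemma Tcap was the call, and the median change was -0.27. Of these genes 16 lay below and 1 above, against 29.9% and 16.9% of all genes. Sgca, a sarcoglycan of the dystrophin complex, had 2.95 and 2.90 with vehicle and 2.36 and 2.20 with AP20187 (change -0.64, SE 0.12, limma adjusted p = 0.0551).

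Energy genes outside the sarcomere included Cox7a1, the muscle form of a cytochrome oxidase subunit, with levels of 2.53 and 2.42 with vehicle and 1.42 and 1.35 with AP20187. Cox7a1 fell by 1.09 (SE 0.12, 2.12-fold, limma adjusted p = 0.00185) and was the 1 call among 39 oxidative phosphorylation genes tested, whose median change was -0.06. Of all genes tested 0.148% were called lower. The call of Cox7a1 was not kept under every alternative. Mss51, a regulator of muscle mitochondria, had 1.43 and 1.51 with vehicle and 0.74 and 0.61 with AP20187, and fell by 0.80 (SE 0.13, limma adjusted p = 0.0282). The 2 treatments were apart in both genes. Tuba8, a tubulin of heart and skeletal muscle, had 0.12 and -0.00 with vehicle and was not well above background with AP20187 (-4.28 and -4.38), at least 8.03-fold lower (limma adjusted p = 0.000267). Without the second vehicle array the calls of Mybpc2 (0.194), Ckmt2 (0.131), Tuba8 (0.0588), Tcap (0.196), Pgam2 (0.0811) and Mss51 (0.27) were lost, and in the authors' deposited table those of Mybpc2 (0.13) and Ckmt2 (0.129). Under normexp the changes of the 3 genes at background were smaller, -1.42 for Tuba8, -1.39 for Mybpc2 and -1.07 for Ckmt2.

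The factors that make myotubes did not pass. Myog, which drives terminal differentiation, had levels of 6.71 and 6.67 with vehicle and 6.81 and 6.78 with AP20187 (change 0.11, SE 0.12, limma adjusted p = 0.713). Myod1 had 2.57 and 2.43 with vehicle and 2.23 and 2.25 with AP20187 (change -0.26, SE 0.12, limma adjusted p = 0.367). None of 14 myogenic and fusion genes tested was called, and 2 lay above and 7 below, against 16.9% and 29.9% of all genes. The median of the 14, -0.16, crossed zero between alternatives, up to 0.05. Acta1, the skeletal alpha actin, had 8.56 and 8.72 with vehicle and 8.31 and 8.49 with AP20187 (change -0.24, SE 0.13, limma adjusted p = 0.438). Over all probes detected on the 4 arrays, the median AP20187 minus vehicle difference fell from 0.10 in the dimmest 10% of them to -0.12 in the brightest 10%, and the part of this slope in the lower values of bright muscle genes was not tested.

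**Figure D3:**
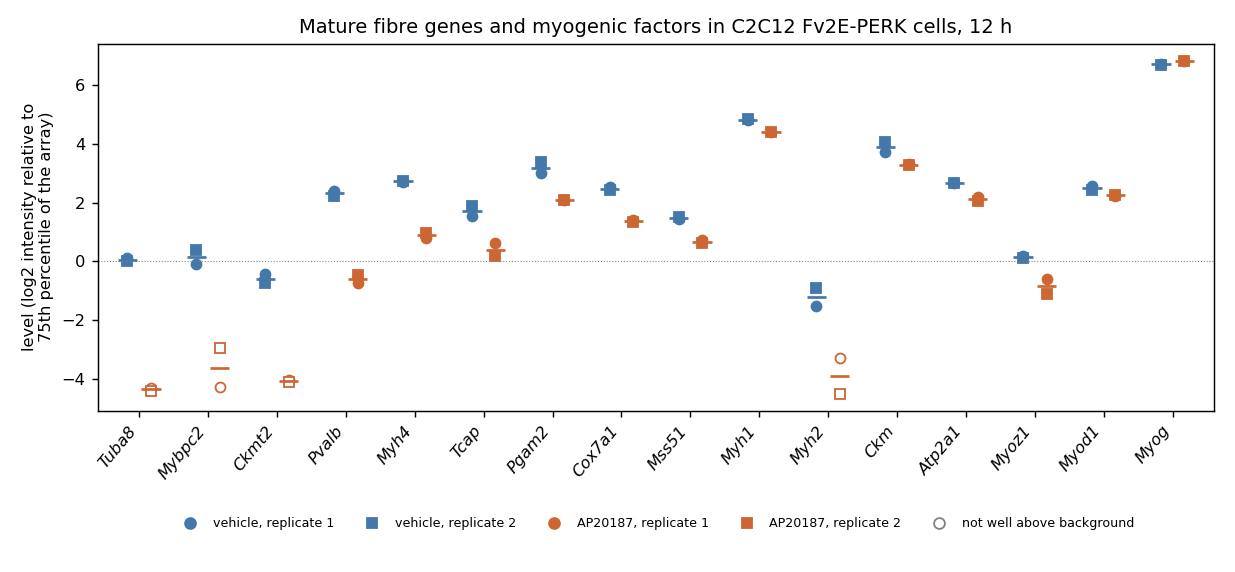
Level of 14 mature muscle genes and of the factors Myod1 and Myog on the 4 C2C12 arrays. Axes, colours and open symbols are those of the fat cell plot. Pvalb goes from 2.40 and 2.22 to -0.73 and -0.48 and Myh4 from 2.71 and 2.72 to 0.80 and 0.96, while Myog stays between 6.67 and 6.81.

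Sterol genes had 1 call, which was lower. Mvd, the decarboxylase that ends the mevalonate branch, had levels of 2.13 and 2.40 with vehicle and 1.56 and 1.42 with AP20187, and fell by 0.78 (SE 0.14, 1.71-fold, limma adjusted p = 0.0401). The call was lost without the second vehicle array (0.322) and under 5 other scalings, with adjusted p between 0.0522 and 0.073. Of 18 sterol genes with 4 values 12 lay below vehicle on both AP20187 arrays and none above, against 29.9% and 16.9% of all genes, and the median change of the 20 tested was -0.32, between -0.34 and -0.12 over 19 alternatives. Pmvk, the kinase before Mvd, had 3.02 and 3.23 with vehicle and 2.55 and 2.52 with AP20187 (change -0.59, SE 0.13, limma adjusted p = 0.0736).

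**Figure D4:**
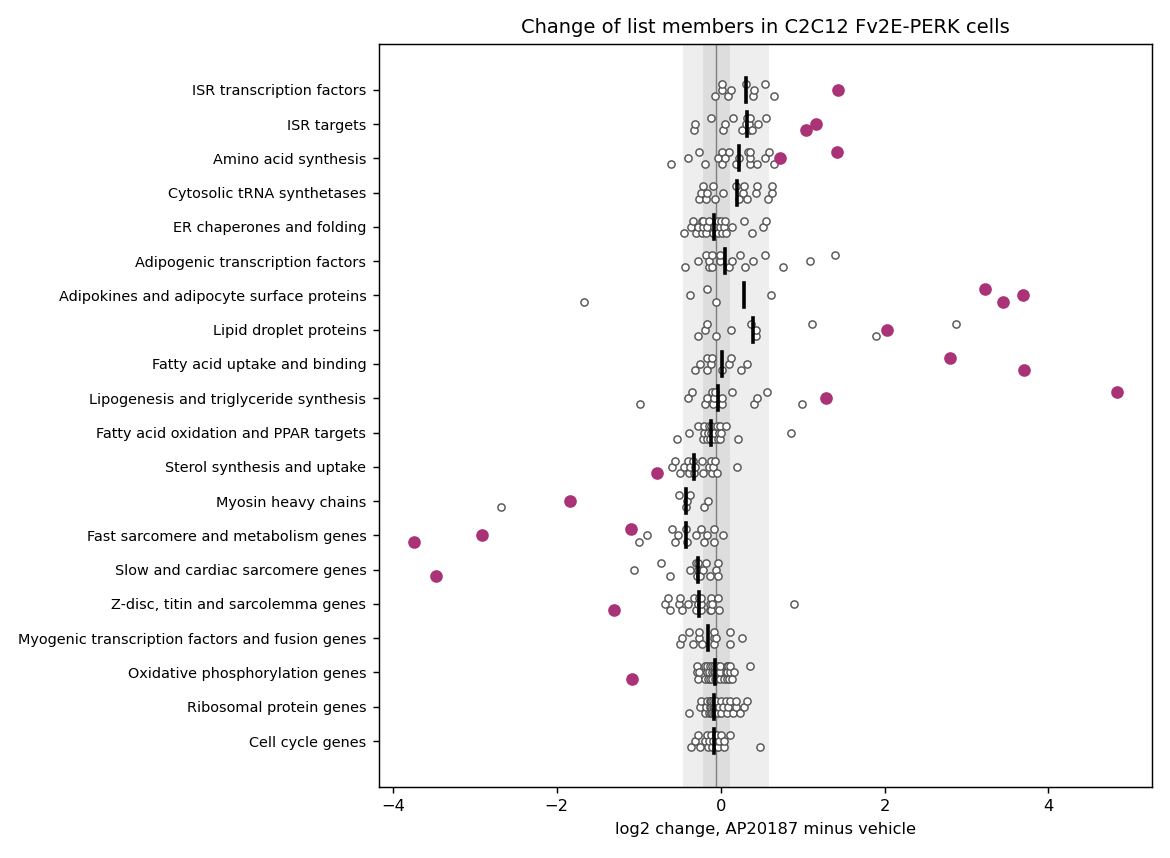
Log2 change, AP20187 minus vehicle, of each tested member of 20 gene lists in C2C12 cells, with filled points for called genes, open points for the others and black bars for list medians. The grey line is the median of all genes tested (-0.06) and the shaded bands show the spread of all genes, from -0.44 to 0.58 for the wider band. Medians run from -0.42 in the myosin and fast fibre lists to 0.40 in the lipid droplet list, where 1 of 12 genes was called. Of these 12, 4 were tested through the AP20187 arrays alone and 2 through the vehicle arrays alone, which sets their direction. Over all 14 lipid droplet genes with values the median was 0.25.

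Further called genes lay outside those programmes. Tac4, a tachykinin peptide, had levels of -2.35 and -2.21 with vehicle and 0.26 and 0.22 with AP20187, and rose by 2.52 (SE 0.23, 5.75-fold, limma adjusted p = 0.000361). Its call was kept under every alternative with a value, where quantile normalization after leaving out outlier spots was not counted. Hp (haptoglobin, a haemoglobin-binding plasma protein also made by fat) had -2.37 and -2.12 with vehicle and -0.19 and -0.77 with AP20187, and rose by 1.76 (SE 0.29, 3.39-fold, limma adjusted p = 0.0277). Akr1b7, an aldo-keto reductase, had -2.51 and -2.71 against -0.58 and -0.83 (change 1.91, SE 0.30, limma adjusted p = 0.0217), or 3.24-fold with the undetected vehicle array at its lowest detected signal. All 3 were well above background on 1 vehicle array only and had separated values. Without the second vehicle array the calls of Hp (0.167) and Akr1b7 (0.151) were lost, as they were without the first AP20187 array (0.151 and 0.113). Glrp1 rose by 2.53 (limma adjusted p = 0.00393), or 4.27-fold on the same footing, and Crmp1 at least 5.20-fold (limma adjusted p = 0.0038), a call lost without the second vehicle array (0.0686). Cyp2e1, a cytochrome P450, had a change of 2.28 (SE 0.41, limma adjusted p = 0.0418), which without the second vehicle array was 1.70 (0.318) and without the first AP20187 array 1.81 (0.0723), neither of them past the threshold. Spsb1, an adaptor of a ubiquitin ligase, rose by 1.26 (SE 0.16, 2.39-fold, limma adjusted p = 0.004) from 0.61 and 0.18 to 1.71 and 1.60, a call lost without the second vehicle array (0.0946), and Cdsn, a desmosome protein of skin, by 1.54 (SE 0.16, 2.90-fold, limma adjusted p = 0.00088) from 0.55 and 0.97 to 2.19 and 2.40. The other falls ran from 0.65 for Dvl3, of Wnt signalling, to 1.40 for Rasa4, a Ras GTPase-activating protein, whose call was lost without either vehicle array (0.0555 and 0.376). Stxbp4 fell by 0.85 on 1 probe while its other probe gave 0.31, so the direction of this gene depends on the probe. Six3, also among the largest rises, rose by 2.06 (limma adjusted p = 0.0485). With the undetected vehicle array at its lowest detected signal that was 2.90-fold. The call of Six3 was lost with no variance trend (limma adjusted p = 0.125) and in the authors' deposited table (limma adjusted p = 0.13).

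General programmes gave no calls in these cells, where 0.445% of all genes tested were called, so lists of this size can hold none. None of 22 cell cycle, 16 interferon, 17 NRF2 target, 16 heat shock, 39 ribosomal protein or 15 atrophy genes tested passed, and their medians lay between -0.17 and -0.03. Trim63, the muscle ubiquitin ligase MuRF1, had levels of 1.01 and 1.11 with vehicle and 0.73 and 0.76 with AP20187 (change -0.32, limma adjusted p = 0.323). Ddit4, a brake of mTORC1, was level at 4.69, 4.66, 4.73 and 4.73. The medians of all 6 lists crossed zero between alternatives.

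The same fusion and compound were used in muscle of the transgenic mice, at another dose and route, and the difference between the changes was tested on all 10 arrays. Of 13678 genes 1706 (12.5%) differed, 562 with a higher change in C2C12 and 1144 with a lower one. Ppp1r15a had a change of 0.58 in C2C12 and 4.01 in muscle, a difference of -3.44 (SE 0.21, limma adjusted p = 3.31e-05). Ddit3 changed by 0.54 and 3.09, a difference of -2.56 (SE 0.19, limma adjusted p = 9.74e-05). Atf3 changed by 1.44 and 3.46, a difference of -2.02 (SE 0.20, limma adjusted p = 0.000423). These 3 stress genes had smaller changes in C2C12, with levels in muscle of 2.22 and 2.22 after vehicle and 5.77 and 5.60 after AP20187 for Atf3. Gdf15 changed by 0.67 and 1.40, a difference of -0.72 (SE 0.18, limma adjusted p = 0.0289). Without either AP20187 muscle array (0.103 and 0.0636), either vehicle muscle array (0.0573 and 0.101), the first C2C12 vehicle array (0.06) or the first C2C12 AP20187 array (0.0905) the difference in Gdf15 did not pass. Fgf21 changed by 1.99 and 0.80, but its difference of 1.19 had an SE of 0.74 and did not pass (limma adjusted p = 0.311). That SE comes from the spread within all groups of the 10 arrays, the untreated wild type muscle included, and not from the compared arrays alone. Atf4 (-0.08), Atf5 (-0.02), Trib3 (-0.44), Asns (0.08), Psat1 (0.41) and Eif2ak3 (-0.33) did not pass either, and Chac1 could not be tested. Tissue, dose and route differ together, so that which of them goes with the differences cannot be told apart.

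**Figure D5:**
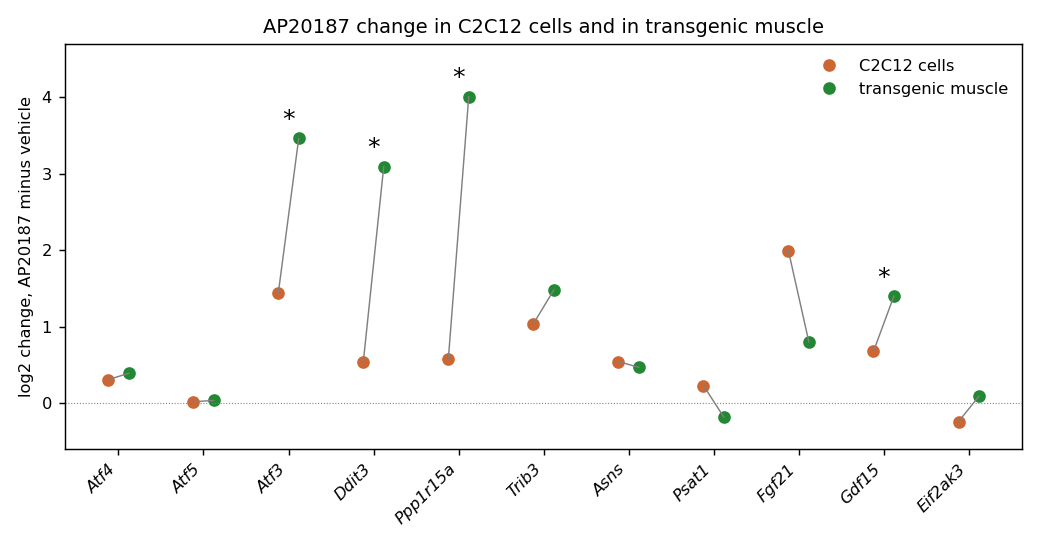
Log2 change, AP20187 minus vehicle, of 11 stress response genes in C2C12 cells (orange) and in transgenic muscle (green), each the difference of 2 means of 2 arrays, or fewer where a spot was left out. Asterisks mark the 4 genes whose difference between the changes passed an adjusted p of 0.05. Ppp1r15a is at 0.58 in C2C12 and 4.01 in muscle, while Asns is at 0.54 and 0.47.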

How the data were processed

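RNA was labelled with Cy3 (150 ng per array, per the labels) and hybridised to 1-colour Agilent mouse arrays. The deposited scanner files hold a background-subtracted intensity per spot, and per the submitters' processing notes they come from Agilent Feature Extraction 10.7.1.1. The authors' deposited table of log2 values matched the scanner values for 55681 of 55821 rows (lowest r 0.99987), has column medians of 0.34 and 0.70 for vehicle and 0.80 and 0.78 for AP20187, and its centring stays unknown. Of 59305 gene spots per array (55681 probes), 41.0% to 52.4% were well above background on the C2C12 arrays. The number of arrays limits the precision.

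Controls and outlier-flagged spots were left out, and log2 intensities were set relative to the 75th percentile of each array. The files give no symbols, so unversioned RefSeq accessions were matched to GRCm38.p6, which named 26056 probes (19752 genes, 5270 with several probes) and left 29625 unnamed. A gene was represented by the brightest probe with a value on every array, and tested if either group had it well above background on its 2 arrays. Tests used limma 3.58.1 (R 4.3.3) with a variance trend on the 4 C2C12 arrays, or on all 10 for the difference from muscle, with Benjamini-Hochberg adjustment at 0.05. A fold is given as "at least" where 1 group was not well above background on both arrays: that group was then set to the higher of its own signal and the lowest signal among detected probes of each array. Named are the 12 largest rises and falls, 12 ISR genes, and leading members of 39 lists, and other called genes were named after their values were seen. The 12 are Atf4, Atf5, Atf3, Ddit3, Ppp1r15a, Trib3, Chac1, Asns, Psat1, Fgf21, Gdf15 and Eif2ak3. Members and lists were chosen with earlier results of these data known. The normexp alternative used the median spot signal with an offset of 50. The headers give transgenic muscle and C2C12 arrays the same slide number with separate scans, so slide was not used as a block.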

Additional observations from a re-analysis of the deposited data

Results flagged for a closer look

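4 stress response genes differed between C2C12 and transgenic muscle in their AP20187 change by the limma interaction term on all 10 arrays. The difference, C2C12 minus muscle, was -3.44 for Ppp1r15a, -2.56 for Ddit3, -2.02 for Atf3 and -0.72 for Gdf15. Over the alternatives it ranged from -3.62 to -3.23 for Ppp1r15a, from -2.71 to -2.35 for Ddit3 and from -2.32 to -1.82 for Atf3, with adjusted p of at most 0.0145 for the 3. For Gdf15 it ranged from -0.88 to -0.52, with adjusted p up to 0.339. Dose and route differ between the experiments along with the tissue. Under normexp the difference also passed for Atf4 (-0.47, limma adjusted p = 0.035) and Fgf21 (0.92, limma adjusted p = 0.0487).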

How the results depend on the processing

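The counts of calls in C2C12 moved with the processing, against 34 higher and 17 lower. Higher and lower calls were 181 and 206 under normexp, 59 and 52 with no filter on dim probes, 62 and 47 with the robust variance model, 53 and 62 with all 10 arrays in the fit, and 20 and 3 in the authors' deposited table. The stricter filter gave 19 higher, no variance trend 6 lower, and the replicate block 49 higher and 32 lower, with 50 of the 51 calls shared. Deviations of equal replicate numbers correlated at 0.0114 over 20401 probes, which cannot show whether the samples were paired. Leaving out 1 array gave 14 to 194 higher and 3 to 125 lower. 3 alternatives were chosen after seeing the data: the percentile over unflagged spots gave 204 higher, quantile normalization after leaving out outlier spots 4619 higher and 74 lower (median log2 change 0.34, 56 of 199 named genes with another sign, 2 of them called), and quantile normalization with those spots kept 10 lower. The cause was not tested.

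For the difference from muscle, against 562 higher and 1144 lower, normexp gave 1423 higher, the median over tested probes 1009, the values that the authors deposited 313, the percentile over unflagged spots 1641 and 731, and quantile normalization after leaving out outlier spots 3304 and 598. Leaving out 1 array gave 237 to 688 higher and 667 to 1030 lower. Members called over all lists were 23, and 48 under normexp, 35 with no filter or the robust model, 14 with the stricter filter, 12 with no variance trend, 8 in the authors' deposited table, 51 with the percentile over unflagged spots, 37 with all 10 arrays, and 13 to 40 with 1 array left out.

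Of the 51 calls, 9 held under every alternative with a value that was followed gene by gene (Adipoq, Atf3, Cfd, Cth, Fabp4, Glrp1, Retn, Tac4 and Thrsp). Quantile normalization after leaving out outlier spots was not among these alternatives. Nor was it among those for uncalled genes, lists and single-gene differences from muscle. The calls of Gadd45a, Cox7a1 and Cdsn were not among the 9. Stxbp4 turned to 0.29 in the authors' deposited table and Gdf1 to 0.25 as the mean over probes. Of 148 uncalled named genes 46 passed under at least 1 alternative, and 246 of 2223 list counts and medians moved. With 2 arrays a group, and signals near background in many rises, small changes of dim genes could not be resolved.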
